A study of Mus musculus with 2 samples.

Results

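The genes described here are 49 genes of the cell cycle and of DNA replication, among 55536 annotated genes. They were chosen by symbol from a list, with earlier results of these data known. They comprise 18 genes that act in S phase, 16 that act in mitosis, 8 cyclins and cyclin-dependent kinases of the G1 phase, 3 inhibitors of those kinases, and 4 genes of the retinoblastoma (pocket protein) and E2F families. They were measured by total RNA sequencing of adrenal gland tissue from male B6CASTF1/J mice, the F1 offspring of C57BL/6J and the wild-derived inbred strain CAST/EiJ, aged 25 days. The 2 libraries form 1 group, and each started from 300 ng of RNA, with ERCC spike-ins added and ribosomal RNA reduced. No library had another genotype or treatment, so the results are levels and the spread between these libraries. The labels number the libraries as biological replicates 1 and 2, and the biosample labels give each library its own animal. The library labels repeat 1 animal and the donor label is shared, so the spread may not be between animals.

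In a dividing cell, D-type cyclins with Cdk4 or Cdk6 and then E-type cyclins with Cdk2 phosphorylate the pocket proteins, which releases E2F factors and switches on the genes for DNA replication. Genes for mitosis follow later in the cycle, and many of them carry the CHR element and CCAAT boxes in their promoters. In the adrenal cortex of young mice, dividing cells lie mainly in the outer part, and older cells move inward.

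Replicate 1 held 35283841 expected counts and replicate 2 held 35156690. All 6 markers of the adrenal cortex and all 5 of chromaffin cells were expressed, which here means at least 1 TPM (a level scaled for transcript length and library total) in each library. The libraries also held other tissues. The 6 liver markers summed to 25.8 TPM (replicate 1) and 18358 TPM (replicate 2), and the 6 skeletal muscle markers to 1061 TPM (replicate 1) and 1.72 TPM (replicate 2). The cortex markers summed to 10919 TPM (replicate 1) and 6087 TPM (replicate 2). The 4 adipocyte markers summed to 1790 TPM (replicate 1) and 1244 TPM (replicate 2). Of 5 red cell markers 3 were expressed: the globin genes Hba-a1, at 2071 and 1299.6 TPM, and Hbb-bs, at 1817 and 1154 TPM, and the haem synthesis gene Alas2, at 26.7 and 28.4 TPM, while the factor Klf1 was at 0 and 0.27 TPM. None of 5 lymphocyte markers reached 1 TPM. Fewer cells of a type and less RNA per cell cannot be told apart in tissue RNA.

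The promoters are shown first because motif shares differed between the S-phase and mitotic genes. RefSeq windows of 300 bases (250 before to 50 after the gene's start, build GRCm38.p6) were found for 40 of the 49 genes. The windows were searched on both strands for the E2F motif TTTNNCGC, the CHR motif TTTGAA and the NF-Y box CCAAT, counting overlapping matches of different motifs for each, and a gene with several windows was counted once. Below are the 250 bases before the start for Mcm5 and Mcm6 (S phase) and Ccnb2, Cdc20 and Cdk1 (mitosis), 5' to 3' on the gene's strand, with the matches in capitals. Matches in the 50 bases after the start were counted but are not shown. For these genes they were a CHR motif in Ccnb2 and an NF-Y box in Mcm5. In Mcm5 and Mcm6, a pair of E2F matches on opposite strands overlap. Mcm5 is at chr8:75109259-75109508 on the plus strand, Mcm6 at chr1:128359706-128359955, Ccnb2 at chr9:70421555-70421804, Cdc20 at chr4:118437344-118437593 and Cdk1 at chr10:69352913-69353162, all 4 on the minus strand.
Mcm5: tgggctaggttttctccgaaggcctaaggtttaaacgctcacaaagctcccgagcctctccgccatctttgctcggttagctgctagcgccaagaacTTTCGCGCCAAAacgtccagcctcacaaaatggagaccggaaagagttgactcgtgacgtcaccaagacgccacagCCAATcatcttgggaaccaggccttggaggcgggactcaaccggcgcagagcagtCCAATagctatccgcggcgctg
Mcm6: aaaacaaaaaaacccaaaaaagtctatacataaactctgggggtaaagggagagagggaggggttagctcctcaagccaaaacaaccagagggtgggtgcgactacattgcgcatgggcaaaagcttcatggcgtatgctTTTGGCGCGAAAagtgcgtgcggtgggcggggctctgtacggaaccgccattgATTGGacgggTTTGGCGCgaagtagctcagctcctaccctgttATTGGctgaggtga
Ccnb2: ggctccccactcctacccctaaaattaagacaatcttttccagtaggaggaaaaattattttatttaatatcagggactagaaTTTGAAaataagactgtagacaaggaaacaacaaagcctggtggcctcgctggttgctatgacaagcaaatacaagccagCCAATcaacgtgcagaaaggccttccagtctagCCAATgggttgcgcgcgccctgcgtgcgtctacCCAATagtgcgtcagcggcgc
Cdc20: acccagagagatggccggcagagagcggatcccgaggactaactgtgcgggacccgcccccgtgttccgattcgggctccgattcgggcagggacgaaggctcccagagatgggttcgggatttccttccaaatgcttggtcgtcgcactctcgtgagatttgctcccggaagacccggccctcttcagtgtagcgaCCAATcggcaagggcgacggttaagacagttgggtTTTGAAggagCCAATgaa
Cdk1: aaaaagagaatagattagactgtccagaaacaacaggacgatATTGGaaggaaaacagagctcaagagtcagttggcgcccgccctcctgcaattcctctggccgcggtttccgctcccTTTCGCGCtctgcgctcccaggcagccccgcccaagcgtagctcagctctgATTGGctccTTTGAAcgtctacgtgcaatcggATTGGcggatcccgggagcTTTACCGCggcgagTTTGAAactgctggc

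The E2F motif was in 8 of 16 S-phase promoters (50%) and in 1 of 14 mitotic promoters (7.14%), that of Cdk1. It was in 9.92% of promoters of expressed nuclear protein-coding genes, and in 5.93% of all promoters of that length. The CHR motif had the opposite pattern, with 3 of 16 S-phase promoters (18.8%) and 11 of 14 mitotic promoters (78.6%), against 13.9% of promoters of expressed coding genes and 20.2% of all. The NF-Y box was in 11 S-phase promoters (68.8%) and 13 mitotic promoters (92.9%), against 42.9% of promoters of expressed coding genes and 41.1% of all. All 11 mitotic promoters with a CHR motif also held an NF-Y box, while 7.02% of promoters of expressed coding genes held both. None of the 3 inhibitors' promoters held an E2F or CHR motif in this window. Of other genes of the pathway, which are not among the 49, the E2F motif was in 33.3% of 24 replication promoters and 8.70% of 23 mitotic promoters, and the CHR motif in 16.7% of the replication promoters and 65.2% of the mitotic promoters. The motifs were not limited to these roles: the E2F motif was in 2 of 5 promoters of G1 genes, and the CHR motif in 54.5% of 11 promoters of other pocket protein, E2F and DREAM genes. A match is a description of the letters and not evidence of binding.

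**Figure D1:**
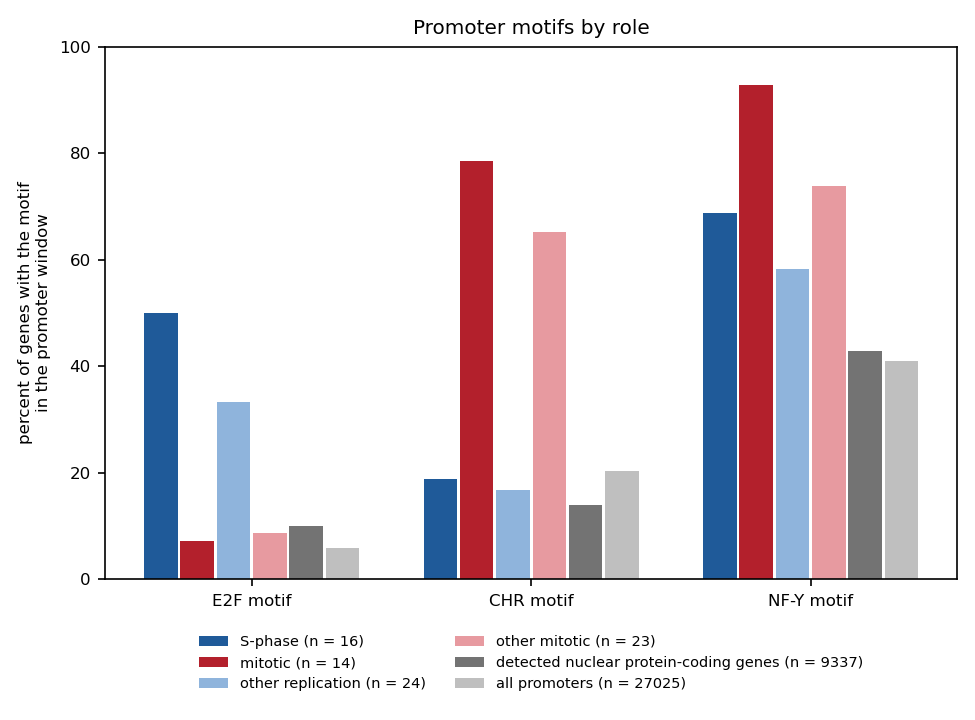
Percent of genes (vertical axis) whose promoter window holds the E2F, CHR or NF-Y motif, for S-phase and mitotic genes, for the other replication and mitotic genes, and for expressed nuclear protein-coding genes and all promoters. The E2F bar is highest for S-phase genes (50%) and the CHR bar for mitotic genes (78.6%).

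Of the 49 genes, 48 were expressed, against 54.1% of all 22015 nuclear protein-coding genes. The exception was Cdc6, which loads the MCM helicase onto origins, at 0.91 TPM (replicate 1) and 0.61 TPM (replicate 2). Most of the 49 stood low among expressed genes: the median member lay at the percentile 27.0 of the 11914 expressed coding genes, whose median level was 10.5 TPM. By role the median percentile was 32.4 for S-phase genes, 17.5 for mitotic genes, 63.1 for G1 cyclins and kinases, 60.8 for inhibitors and 22.5 for pocket proteins and E2F genes. The 49 genes summed to 704.7 TPM (replicate 1) and 513.4 TPM (replicate 2), of which the 8 G1 genes held 399.8 and 278.2 TPM.

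**Figure D2:**
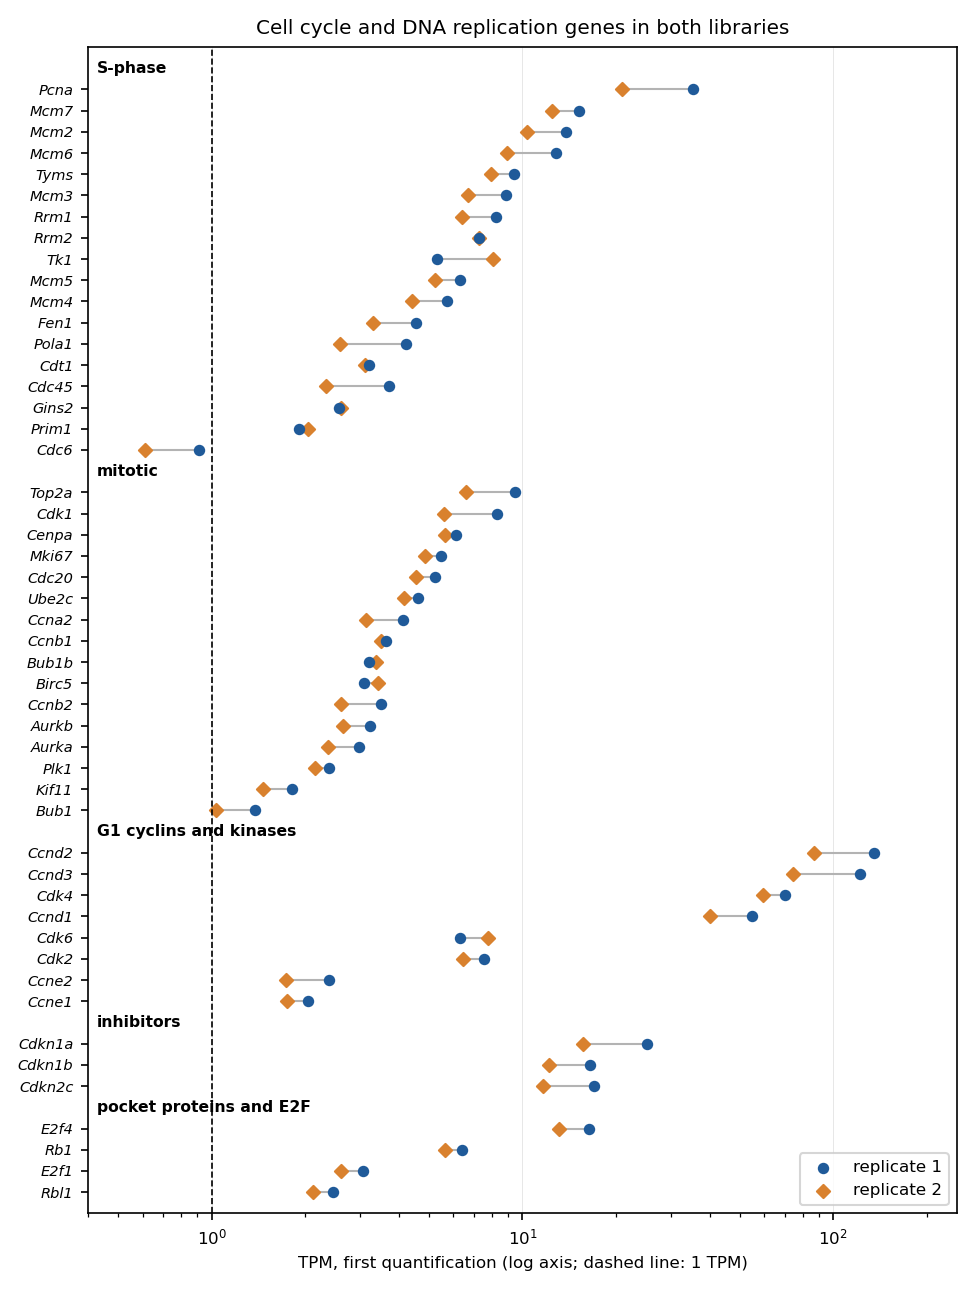
TPM (log axis) of each of the 49 genes in replicate 1 (circles) and replicate 2 (diamonds), grouped by role and ordered by mean. Ccnd2 is highest at 135.4 and 86.7 TPM, and Cdc6 is the gene to the left of the line at 1 TPM.

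Among the S-phase genes, Pcna, the sliding clamp of the replicative polymerases (ENSMUSG00000027342.14, mm10 chromosome 2), was highest at 35.4 TPM (replicate 1) and 20.9 TPM (replicate 2). The 6 subunits of the MCM replicative helicase, which act in equal number as a ring, did not have equal levels. Mcm7 was at 15.3 and 12.5 TPM, Mcm2 at 13.8 and 10.3 TPM and Mcm6 at 12.8 and 8.94 TPM, while Mcm3 was at 8.88 and 6.66 TPM, Mcm5 at 6.31 and 5.24 TPM and Mcm4 at 5.70 and 4.42 TPM. This order was the same in both libraries, although neighbours such as Mcm2 and Mcm6 lay within each other's spread. In the second quantification, made from the reads with an index, Mcm7, at 32.8 and 25.0 TPM, was again highest and Mcm4, at 9.34 and 6.65 TPM, lowest of the 6, with Mcm6 above Mcm2. On coding transcripts alone Mcm7, at 12.2 and 9.82 TPM, was below Mcm6, at 12.4 and 8.54 TPM, in replicate 1 and above it in replicate 2. Exons of Mcm7 overlap those of Cops6, with 1693 and 1575 counts, and Ap4m1, with 591 and 595 counts, on the other strand, and the microRNA genes Mir25 and Mir93, both listed with 0 counts, on the same strand.

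The nucleotide supply genes were close to the helicase genes. Thymidylate synthase, Tyms, was at 9.41 TPM (replicate 1) and 7.92 TPM (replicate 2). The ribonucleotide reductase subunits Rrm1 and Rrm2 were at 8.22 and 6.37 TPM and at 7.23 and 7.27 TPM, so that their order differed between the libraries. Of the 49 genes only Rrm1 was past 1.5-fold between the quantifications relative to the median coding gene: it was at 23.2 and 15.2 TPM in the second, 1.54-fold higher on that relative scale. Of expressed coding genes 3.81% were past 1.5-fold in that direction and 2% in the other. Factors that assemble or start the replication fork were lower. The polymerase alpha subunit Pola1 was at 4.22 and 2.59 TPM, the licensing factor Cdt1 at 3.22 and 3.11 TPM, the helicase cofactor Cdc45 at 3.71 and 2.33 TPM, its partner Gins2 at 2.57 and 2.60 TPM and the primase Prim1 at 1.91 and 2.04 TPM. The flap endonuclease Fen1 was at 4.56 and 3.31 TPM.

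All 16 mitotic genes were expressed at a mean of 1.21 to 8.04 TPM. Top2a, the topoisomerase that separates sister DNA (ENSMUSG00000020914.17, chromosome 11), was highest at 9.48 TPM (replicate 1) and 6.59 TPM (replicate 2). Cdk1, the kinase that drives entry into mitosis, was at 8.29 and 5.58 TPM, the centromeric histone Cenpa at 6.11 and 5.63 TPM, and Mki67, the antigen used to count cycling cells, at 5.48 and 4.86 TPM. The cyclins that activate Cdk1 were lower than their kinase in both libraries: Ccna2 at 4.12 and 3.13 TPM, Ccnb1 at 3.65 and 3.52 TPM and Ccnb2 at 3.52 and 2.61 TPM. Cdc20 and Ube2c, which act with the anaphase-promoting complex, were at 5.23 and 4.56 TPM and at 4.6 and 4.15 TPM. The lowest were the mitotic kinesin Kif11, at 1.81 and 1.46 TPM, and the checkpoint kinase Bub1, at 1.38 and 1.03 TPM. The other mitotic members, the kinases Aurka, Aurkb, Plk1 and Bub1b and the survivin gene Birc5, lay between 2.15 and 3.42 TPM in either library.

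S-phase genes stood above mitotic genes in both libraries. Their sum was 149.4 TPM (replicate 1) and 115.1 TPM (replicate 2), while the mitotic genes summed to 68.6 TPM (replicate 1) and 57.1 TPM (replicate 2). The log2 ratio of the sums was 1.07 ± 0.078 (SD, n = 2), and its size exceeded that SD. The lists differ in length, and the difference of their medians of log2(TPM + 0.1) was smaller, at 0.74 ± 0.014 (SD, n = 2). Against the inhibitors the direction depended on the summary. The log2 ratio of the S-phase sum over the inhibitor sum was 1.45 ± 0.14 (SD, n = 2), with 18 genes over 3, but the median S-phase gene was below the median inhibitor, with a difference of -1.27 ± 0.30 on the same log2 scale (SD, n = 2).

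By TPM over all transcripts, the 4 highest levels of the 49 were those of G1 genes. On coding transcripts alone in the first quantification 1 of these genes, Cdk4, was below Pcna and Cdkn1a. In the second, coding transcripts of Cdk4, at 42.7 and 34.7 TPM, were above those of Cdkn1a, at 38.2 and 23.5 TPM. Those of Pcna, at 44.3 and 25.7 TPM, were above Cdk4 in replicate 1 and below it in replicate 2. Ccnd2, a D-type cyclin (ENSMUSG00000000184.12, chromosome 6), was at 135.4 TPM (replicate 1) and 86.7 TPM (replicate 2), and Ccnd3 at 121.6 and 74.3 TPM. Ccnd1 was at 54.6 and 40.2 TPM, below Ccnd2 by a log2 ratio of 1.21 ± 0.14 (SD, n = 2). In the second quantification Ccnd3, at 216.3 and 131.9 TPM, was above Ccnd2, at 177.6 and 119.3 TPM, so the order of this pair was not fixed. Cdk4, their kinase partner, was at 70.0 and 59.4 TPM, while its paralog Cdk6 was at 6.31 and 7.72 TPM and Cdk2 at 7.5 and 6.42 TPM. The E-type cyclins that open S phase were the lowest of the role: Ccne2 was at 2.39 and 1.73 TPM and Ccne1 at 2.04 and 1.75 TPM, and their levels lay within each other's spread.

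The inhibitors had levels between those of the D-type cyclins and the mitotic genes. Cdkn1a (p21, a target of p53) was at 25.2 TPM (replicate 1) and 15.7 TPM (replicate 2), Cdkn2c (p18, which binds Cdk4 and Cdk6) at 17.0 and 11.6 TPM, and Cdkn1b (p27) at 16.5 and 12.2 TPM. In each library every inhibitor was above every mitotic gene. Among the pocket protein and E2F genes, E2f4, which acts mainly in repressor complexes of resting cells, was at 16.4 and 13.1 TPM, above the activator E2f1, at 3.08 and 2.61 TPM, by a log2 ratio of 2.37 ± 0.055 (SD, n = 2). Rb1 was at 6.40 and 5.63 TPM and its relative Rbl1 (p107) at 2.45 and 2.12 TPM, a log2 ratio of 1.40 ± 0.017 (SD, n = 2).

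Other genes of the pathway placed these levels. Of 33 other replication genes 31 were expressed, led by the origin recognition subunits Orc4, at 21.9 and 16.6 TPM, and Orc3, at 20.7 and 17.2 TPM, and the single-strand binding protein Rpa1, at 19.9 and 17.3 TPM. Of 29 other mitotic genes 28 were, led by the Cdk subunit Cks1b, at 8.59 and 7.07 TPM, the chromosomal passenger Incenp, at 8.14 and 6.86 TPM, and Cks2, at 6.23 and 8.69 TPM. Of 13 other pocket protein, E2F and DREAM complex genes 11 were, led by Tfdp2, at 22.3 and 18.0 TPM, Lin37, at 22.3 and 14.3 TPM, and Tfdp1, at 21.2 and 14.4 TPM. Of the 4 other inhibitors, Cdkn1c (p57), an imprinted gene, was at 173.6 TPM (replicate 1) and 94.5 TPM (replicate 2), above each of the 49 genes. Cdkn2d was at 5.90 and 4.43 TPM, Cdkn2b at 1.81 and 1.16 TPM, and Cdkn2a was under 1 TPM in both.

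Each gene was next compared between the libraries, as the ratio of expected counts over TMM-scaled library sizes, replicate 1 over replicate 2. There was 1 library on each side, so the ratio has no replicate check and compares these libraries and not conditions, and its 95% exact interval covers counting error only. No member was at least 1.5-fold higher in replicate 1, where 8.27% of 19801 genes with at least 10 counts were, and 1 member was at least 1.5-fold lower, where 15.4% of those genes were. Among expressed coding genes the shares were 2.54% higher and 8.42% lower. No member was past 2-fold, where 3.93% of the tested genes were higher and 10.2% lower. Of the calls over all genes, 34.9% were higher in replicate 1, but 56.0% when library totals and 69.5% when spike-in totals replaced TMM. Over the 49 members the median log2 ratio was 0.10, and over all tested genes it was 0.01. The median of all genes was 0.24 with library totals and 0.36 with spike-in totals, scalings that shift every gene by the same amount. In the second quantification the median was 0.13 over the members and -0.00017 over all genes tested there.

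The member past 1.5-fold was Tk1, thymidine kinase of the salvage pathway (ENSMUSG00000025574.13, chromosome 11). It had 190 counts and 5.30 TPM (replicate 1) and 295 counts and 8.03 TPM (replicate 2), a log2 ratio of -0.87 (95% counting interval -1.14 to -0.61). With spike-in totals the ratio was -0.52, no longer past 1.5-fold. Exons of Tk1 overlap those of Afmid on the other strand, which had 185 counts in replicate 1 and 821.4 counts in replicate 2. Liver markers moved the same way between the libraries, and the part of either in the Tk1 value was not tested.

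Of the 49 members, 16 had counting intervals wholly above 0, where 21.5% of all tested genes did, and Tk1 and Cdk6 had intervals wholly below 0, where 23% did. Such intervals narrow with counts, and the tested genes include those with as few as 10 counts, so the sets are not alike in depth. Cdk6 was at -0.47 (-0.59 to -0.36). The D-type cyclins were all above 0 within 1.5-fold, at 0.35 for Ccnd2, 0.47 for Ccnd3 and 0.24 for Ccnd1, as were all 3 inhibitors, at 0.47 for Cdkn1a, 0.30 for Cdkn2c and 0.22 for Cdkn1b. The median of the G1 genes was 0.27 and that of the inhibitors 0.30, while the medians of S-phase genes, at 0.09, of mitotic genes, at 0.09, and of pocket protein and E2F genes, at 0.02, lay nearer to that of all genes. Mki67 was at 0.00 (-0.10 to 0.10) on 1866 and 1581 counts. All 6 cortex markers were above 0 as well, with a median of 0.63, as were all 5 chromaffin markers, with a median of 0.28, and all 4 adipocyte markers, with a median of 0.16. The part of these cell types in the members' values was not tested. With library totals Ccnd3, Ccne2, Pcna, Cdc45, Cdc6 and Cdkn1a also passed 1.5-fold as higher in replicate 1, where 15.5% of all tested genes did, and with spike-in totals 17 members did, where 24.2% of those genes did.

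Exons of Ube2c overlap those of Tnnc2, a fast muscle troponin, on the other strand. Tnnc2 had 1863 counts in replicate 1 and 3 counts in replicate 2. Ube2c had 138 counts in replicate 1 and 123 counts in replicate 2, a log2 ratio of -0.07 (-0.43 to 0.29). The part of muscle transcripts in the Ube2c value was not tested. In all, exons of 19 of the 49 genes overlap those of another annotated gene, 18 of them on the other strand. The share of all genes with such overlaps was not computed, so whether this count is usual is not known here. Whether counting used the strand is not given in the sources used here.

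**Figure D3:**
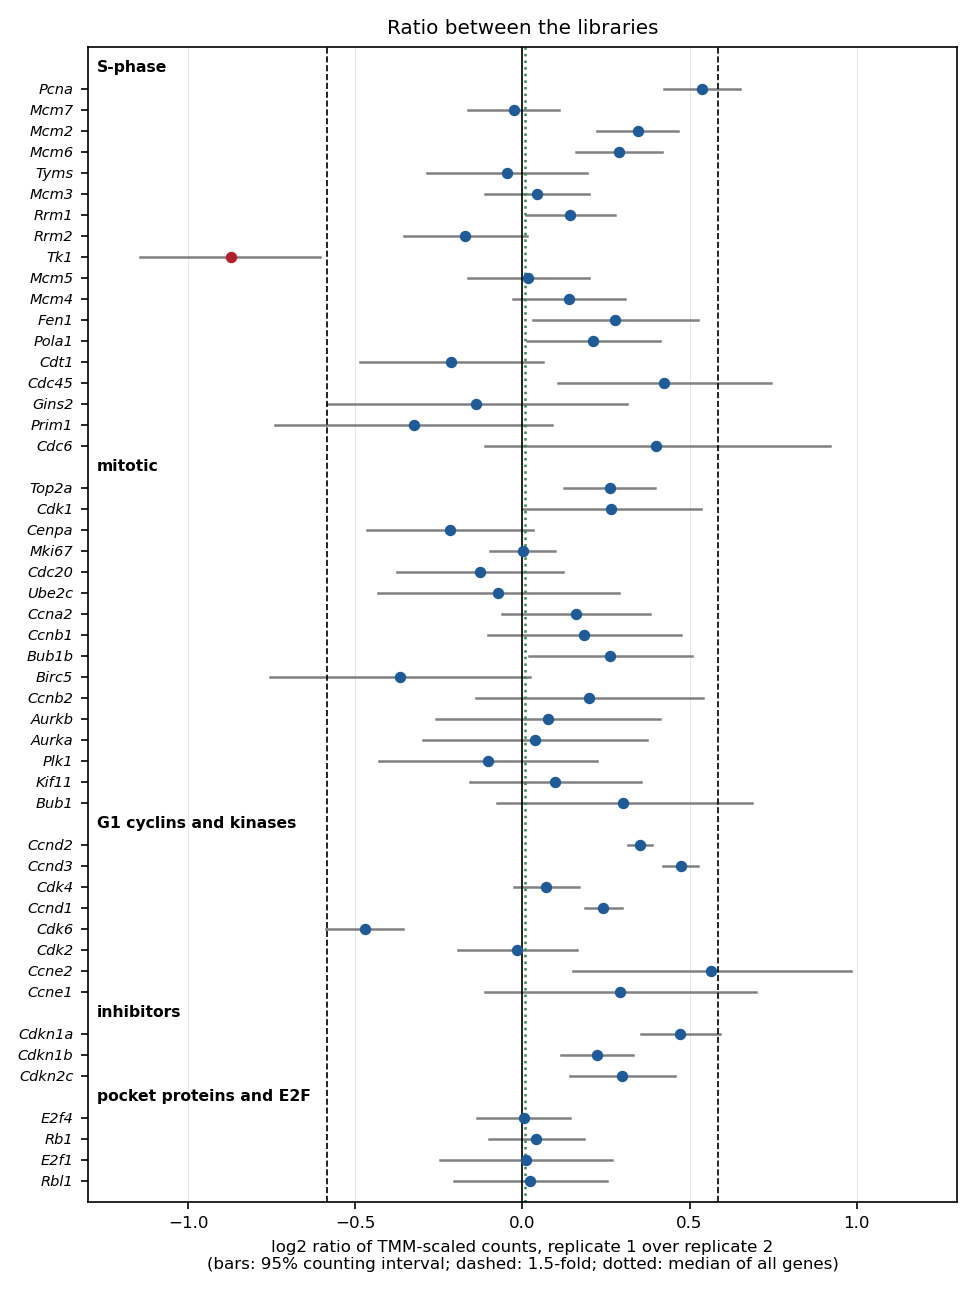
Log2 ratio of TMM-scaled counts, replicate 1 over replicate 2, for each of the 49 genes (points) with the 95% exact counting interval (bars). Tk1, at -0.87, is the point outside the dashed lines at 1.5-fold, and the dotted line is the median of all genes, at 0.01.

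Of 33 other replication genes 3 were past 1.5-fold in the direction of Tk1. So were 2 of 29 other mitotic genes and 1 of 13 other pocket protein, E2F and DREAM genes, all with a mean of at least 1 TPM. In that direction were 15.4% of all tested genes and 8.42% of expressed coding genes. Of the 4 other inhibitors, Cdkn1c was past 1.5-fold as higher in replicate 1, at 0.68, where 8.27% of all tested genes were. Mcm10, which acts in activating the loaded helicase, was at -1.74, with 1.71 TPM (replicate 1) and 5.88 TPM (replicate 2). The repressor E2f8 was at -1.08, with 1.10 and 1.95 TPM. Cyclin F, Ccnf, was at -0.93, Gins1 at -0.79 and Cks2 at -0.71. With spike-in totals Ccnf, at -0.57, Gins1, at -0.44, and Cks2, at -0.35, were within 1.5-fold, and with library totals Gins1, at -0.56, and Cks2, at -0.48, were too. Replicate 2 was also the library with the liver transcripts, and all 5 macrophage markers were below 0, with a median of -0.52. The part of either in these values was not tested.

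The deposited transcript values divide each gene's level among annotated transcripts. The median member had 91.3% of its TPM on protein-coding transcripts in replicate 1 and 91.2% in replicate 2, against 89.4% and 89.5% for expressed coding genes. In 14 of the 49 genes the share was under 80% in both libraries, where 31.2% of expressed coding genes were. Ccnd2, the most abundant of these, lay just under that level, with 77.95% in replicate 1 and 79.73% in replicate 2. Cdk4 had 26.3% in replicate 1 and 23.9% in replicate 2, and 32.8% in both libraries by the second quantification. On coding transcripts alone in the first quantification Cdk4 was at 18.4 TPM (replicate 1) and 14.2 TPM (replicate 2). That was below Pcna, at 34.3 and 20.1 TPM, and Cdkn1a, at 25.2 and 15.7 TPM. It was above Cdk6, at 6.21 and 7.61 TPM. By the second quantification coding transcripts of Cdk4 were above those of Cdkn1a in both libraries. They were above those of Pcna in replicate 2 alone. A transcript with a retained intron, Cdk4-209, of 468 bases, took 35.4% and 39.9% of the TPM of Cdk4. Of expected counts, which are not scaled for length, coding transcripts held 36.6% and 36.5% for Cdk4 and 96.8% and 97.0% for Ccnd2. Exons of Cdk4 overlap those of Tspan31 on the other strand, with 1467 and 2069 counts, and how far reads of the pair were separated was not tested.

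Other members had low coding shares on fewer reads. Cenpa had 14.8% in replicate 1 and 22.1% in replicate 2, led by the transcript Cenpa-202, annotated as subject to nonsense-mediated decay, with 38.5% and 48.7%. Gins2 had 18.1% and 16.0%, with 47.3% and 45.2% on the retained-intron transcript Gins2-204 and 34.6% and 38.8% on a transcript annotated as processed. These are shares of TPM. Of expected counts, 68.0% and 64.8% of Gins2 but 15.4% and 21.4% of Cenpa were on coding transcripts. Tyms differed between the libraries, at 40.8% and 12.2%, but was at 59.2% and 56.3% in the second quantification, so its division among transcripts was not fixed by these data. Shares of some other members also moved in the second quantification. Cdk1 went from 64.8% and 76.0% up to 93.2% and 100%. Pcna went from 97% and 96.4% down to 54.8% and 53.5%, and Rrm1 from 92.8% and 91.2% down to 51.1% and 57.8%. Several members had all of their TPM, rounded to 3 digits, on coding transcripts in both libraries of the first quantification. They were the inhibitors Cdkn1a, Cdkn1b and Cdkn2c, the mitotic genes Mki67, Ube2c, Birc5 and Ccnb2, the S-phase genes Mcm4 and Fen1, and E2f1.

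**Figure D4:**
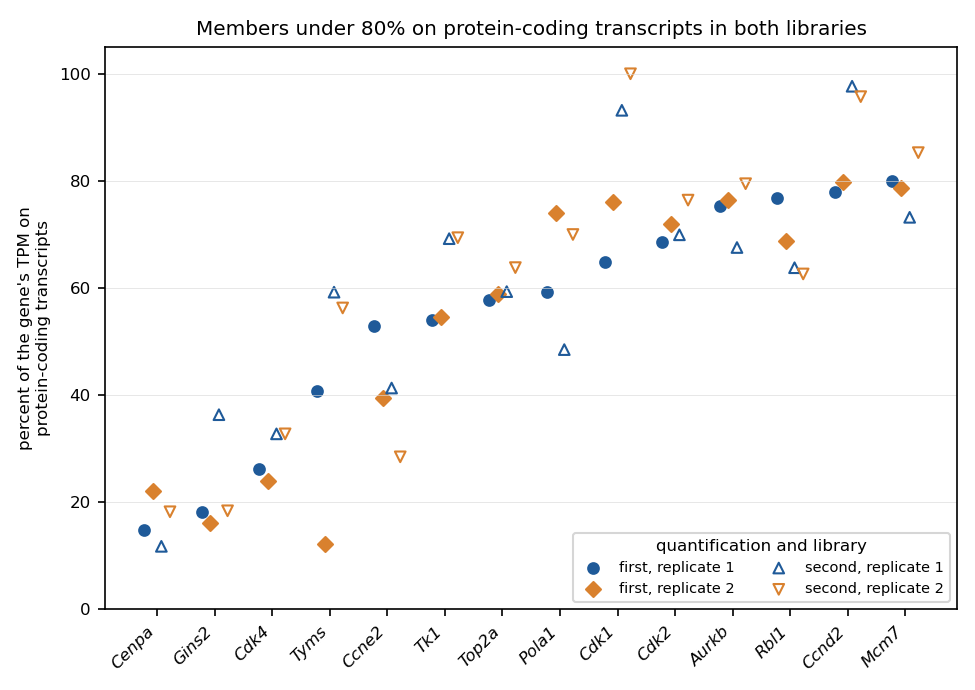
Percent of a gene's TPM on protein-coding transcripts (vertical axis) for the 14 genes under 80% in both libraries, in the first quantification (filled) and the second (open). Cenpa, Gins2 and Cdk4 lie under 40% in both quantifications. Shares of other genes, such as Tyms and Cdk1, differ between the quantifications.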

How the data were processed

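Per the labels' protocols, RNA of adrenal tissue was purified with a kit and libraries were made with a kit named as directional. The deposited text files give mm10 and annotation M21 and list 2 quantifications, one derived from alignments to transcripts and another directly from reads. For the tools' names and versions: not given in the sources used here.

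The authors deposited expected counts and TPM per gene and transcript, with the percent of a gene's TPM on each transcript and, as a signal, the posterior SD of each count. That SD was at most 1.94% and 2.22% of a member's count, for Ccnb1. The deposited estimated counts and TPM of the second quantification were summed per gene. Entries that name no gene (2.27e-05% and 1.91e-05% of counts), and spike-ins (0.839% and 0.915%), stayed out of library sizes and ratios.

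Counts were rounded to whole numbers and scaled by TMM (edgeR 4.0.16, factors 1.08 and 0.923). Ratios of genes with at least 10 counts in total were called past 1.5-fold. Intervals are 95% exact Clopper-Pearson, checked on simulated counts. With 1 library on each side edgeR's quasi-likelihood test could not be fitted, and no p-value is given. Alternatives were library totals, spike-in totals, DESeq2 1.42.0 size factors, the second quantification, other minimums and folds, other summaries and, chosen after the data were seen, coding transcripts alone. Coordinates and names are from GENCODE M21.

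The rule named the 4 highest members of each role, those under 1 TPM and those past 1.5-fold between libraries or quantifications. Values of other members, the transcripts and the overlapping genes were added after values were seen, with a range for Aurka, Aurkb, Plk1, Bub1b and Birc5. By rule, other pathway genes are the 3 highest of each list and those past 1.5-fold with a mean of at least 1 TPM. Members and lists were chosen with earlier results of these data known. Some genes of these lists are not reported here.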

Additional observations from a re-analysis of the deposited data

How the results depend on the processing

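The number of members at or over 1 TPM in both libraries was 48 to 49 with the second quantification, other minimums, another TPM base or 1 library left out, and 43 on coding transcripts alone. Summed TPM moved with what TPM is relative to. With the second quantification the sums were 250.1 (S phase), 100.5 (mitotic), 540.7 (G1), 75.9 (inhibitors) and 41.0 (pocket proteins and E2F), and over nuclear protein-coding genes alone they were 390.2, 185.2, 1002, 145.2 and 76.3. On coding transcripts alone the mitotic sum was 49.2 and that of pocket proteins and E2F 21.2. Taking 1 library at a time, the sums ran over 115.1 to 149.4, 57.1 to 68.6, 278.2 to 399.8, 39.5 to 58.7 and 23.5 to 28.3 in the same order.

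The log2 ratio of S-phase over mitotic sums kept its direction, at 1.31 (second quantification), 1.16 (coding transcripts), 0.74 (medians), 0.92 (without the highest gene of each) and 1.01 to 1.12 by library. That over inhibitors was 1.74, 1.18, -1.27, 1.88 and 1.35 to 1.54, changing sign with medians, since the sums cover 18 and 3 genes.

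Members past 1.5-fold as higher in replicate 1 numbered 6 with library totals, 17 with spike-in totals and 1, Ccne2, with the second quantification, where 15.5%, 24.2% and 8.44% of all tested genes were. The number lower was 0 with spike-in totals and 0 at 2-fold. The median ratios moved with the scaling: over all members, S phase, mitotic, G1, inhibitors, and pocket proteins and E2F they were 0.33, 0.32, 0.32, 0.50, 0.53 and 0.25 with library totals, and 0.46, 0.45, 0.44, 0.62, 0.66 and 0.37 with spike-in totals. The other alternatives left these medians within 0.1.

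Depth limits single ratios: on 84 and 54 counts the interval for Cdc6 was -0.11 to 0.92. No paired analysis was possible because there is 1 group.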
